A study of Rattus norvegicus with 3 samples.

Results

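The 10 genes described here encode microtubule-associated proteins: MAP4, MAPT (tau), MAP2, MAP7, MAP7D1, MAP1A, MAP1B, MAP1S, MAP6 and MAP9. They were chosen by symbol, as classical proteins that bind the microtubule lattice, and all 10 have 1 entry each among the 12758 gene symbols of the table. The 24 entries named MAP2K, MAP3K or MAP4K with a number are upstream kinases of the mitogen-activated protein kinase cascade. They share only the prefix and were not counted. RNA came from the acellular supernatant of female Sprague Dawley rat spinal cord, 3 months of age, taken just rostral to T9 at 24 h after a laminectomy without a contusion (No-SCI) or with a moderate to severe contusion (SCI). The tissue was digested with a cold active protease and the cells were removed by centrifugation before total RNA was sequenced. Both groups had the laminectomy. The labels give 2 No-SCI libraries and 1 SCI library, while the methods state 2 animals per condition.

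The table gives 1 value for No-SCI and 1 for SCI, each the authors' FPKM, a level in which sequenced fragments are scaled to the length of the transcript and to the size of the library. No value given per library is used here, though by the labels the SCI value rests on 1 library. The methods give a read number per sample, but how many fragments stand behind each value and how animals varied are not known, so the values stand without SD or n, and the groups could not be compared by a test. A difference is described by the log2 ratio (SCI over No-SCI), where −1 is a 2-fold lower value after SCI, and a gene is counted as changed in size when it passed a fold of 2. In such bulk RNA, fewer cells or axons of a type and less RNA in each cannot be told apart.

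Microtubules are polymers of tubulin that form the tracks for transport along axons and dendrites. Microtubule-associated proteins bind along the polymer, where they stabilize it, space it from its neighbours and regulate which motors can walk on it. Tau is best known in axons and MAP2 in dendrites, and together with the widely expressed MAP4 they form a family that shares repeats for microtubule binding near the carboxyl terminus. MAP1A, MAP1B and MAP1S are a separate family, of which MAP1B is prominent in growing axons and MAP1A in mature neurons. MAP7 and MAP7D1 recruit kinesin-1 to microtubules, MAP6 (also known as STOP) makes microtubules resistant to cold, and MAP9 acts at the spindle and in cilia.

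The members split by level. MAP4, MAPT, MAP2 and MAP7 stood at 713 FPKM or more in No-SCI and were all lower after SCI, whereas of the 6 members at lower levels 3 were lower and 3 higher, none of them past 2-fold. MAP7 had the largest change with a log2 ratio of −1.70, followed by MAP4 with −1.54 and MAP2 with −1.32. MAPT followed with −0.85, just short of 2-fold. In all, 7 of the 10 members (70.0%) were lower after SCI, where 56.3% of all 12771 entries were. Of the 10 members 3 (30.0%) were at least 2-fold lower, against 12.1% of all entries, and 0 were at least 2-fold higher, against 7.96%. The other 3 members (30.0%) were higher by a smaller fold, where 43.7% of all entries were higher by any size. At a fold of 1.5, 4 members were lower and 1 higher, beside 26.3% and 16.9% of all entries, and at a fold of 1.3, 6 were lower and 1 higher, beside 35.7% and 24.6%. The median log2 ratio of the members was −0.51, and that of all entries was −0.12.

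**Figure D1:**
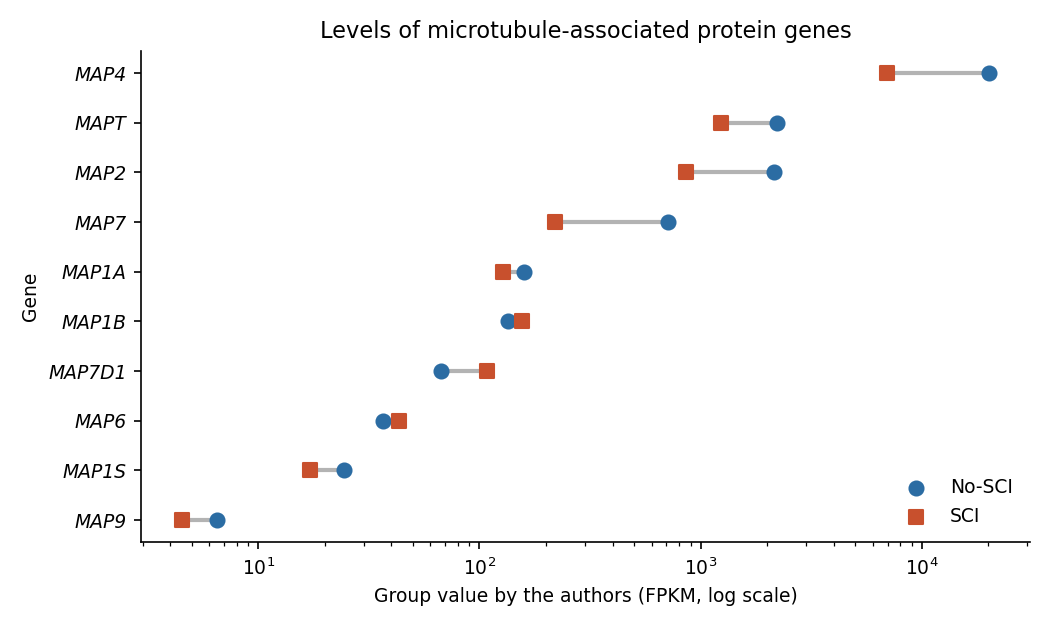
Level of each microtubule-associated protein gene in No-SCI (circles) and SCI (squares), as the authors' group FPKM on a log scale, 1 value per group with no error available. The 4 genes with the highest levels all moved to lower values after SCI, from 20198 to 6958 FPKM for MAP4, and MAP7D1, MAP1B and MAP6 moved to higher ones.

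The sequences upstream of annotated starts differ in their bases. Each sequence stands for 1 annotated start, also where a gene has many transcripts. RefSeq windows of 250 bases before an annotated start (build GRCr8) matched 7 of the members by symbol, Map1a, Map1b, Map1s, Map2, Map7, Map7d1 and Map9, with a second start for Map7. The 4 windows printed here, each read 5′ to 3′, belong to the 2 members that were at least 2-fold lower and have a window, Map7 and Map2, and to the 2 members with a window that were higher after SCI, Map7d1 and Map1b. Capitals mark matches, on either strand, to GGGCGG, known as the GC box, to TATAAA, the core promoter element called the TATA box, to CACGTG, one form of the E-box, or to the CCAAT box, which is named after its letters.
Map7, first start, chr1:16729877-16730126, plus strand: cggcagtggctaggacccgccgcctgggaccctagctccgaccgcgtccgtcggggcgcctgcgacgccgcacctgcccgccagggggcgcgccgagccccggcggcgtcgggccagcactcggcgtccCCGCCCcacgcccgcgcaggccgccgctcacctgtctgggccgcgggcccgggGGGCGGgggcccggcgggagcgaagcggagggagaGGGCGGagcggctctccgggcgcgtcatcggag
Map2, chr9:75346440-75346689, plus strand: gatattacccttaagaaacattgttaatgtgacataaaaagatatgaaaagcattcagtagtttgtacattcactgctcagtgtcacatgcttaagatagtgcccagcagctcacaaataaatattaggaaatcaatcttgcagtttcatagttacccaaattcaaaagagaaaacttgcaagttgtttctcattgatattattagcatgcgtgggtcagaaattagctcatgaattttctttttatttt
Map7d1, chr5:143837022-143837271, minus strand: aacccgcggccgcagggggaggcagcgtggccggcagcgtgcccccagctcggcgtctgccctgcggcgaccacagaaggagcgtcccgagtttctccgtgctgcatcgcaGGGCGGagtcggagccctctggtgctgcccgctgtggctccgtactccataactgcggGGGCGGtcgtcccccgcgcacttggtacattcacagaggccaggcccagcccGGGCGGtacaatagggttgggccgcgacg
Map1b, chr2:32644472-32644721, minus strand: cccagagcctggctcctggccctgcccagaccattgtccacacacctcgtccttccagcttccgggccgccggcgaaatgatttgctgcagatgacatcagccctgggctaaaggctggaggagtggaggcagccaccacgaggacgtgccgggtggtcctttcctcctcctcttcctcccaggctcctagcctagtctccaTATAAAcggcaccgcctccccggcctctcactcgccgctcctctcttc
No 2 matches overlapped in these windows. The first Map7 window is 82.4% G and C with 42 CpG dinucleotides, the Map7d1 window 71.2% with 28, the Map1b window 63.6% with 13 and the Map2 window 32% with 1, where the median of all 33469 windows is 51.2% with 5. The window at the second start of Map7, not printed, is 62% G and C with 14 CpG and holds 0 GC boxes. The first Map7 window and that of Map7d1, whose paralogous genes moved in opposite directions, each hold 3 GC boxes, which 30.5% of all windows hold at least once. Map1b alone of the member windows holds a TATA box (12.9% of all windows) and Map1s alone a CCAAT box (34.0%), no member window holds an E-box (5.59%), and Map1a holds 2 GC boxes. These letters describe the windows and say nothing of which factors bind there.

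MAP4, MAPT and MAP2 were the 3 most abundant members in both groups and all were lower after SCI. MAP4, which stabilizes microtubules in most tissues, stood at 20198 FPKM in No-SCI and 6958 after SCI, so 34.4% of its level was left. Tau, the product of MAPT, stood at 2223 FPKM in No-SCI and 1231 after SCI, with 55.4% left. MAP2 stood close to MAPT in No-SCI, at 2140 FPKM, and at 860 after SCI, with 40.2% left. The level of MAPT was 1.04 times that of MAP2 in No-SCI and 1.43 times after SCI, and that of MAP4 was 9.09 times that of MAPT in No-SCI and 5.65 times after SCI. Thus the order MAP4, MAPT, MAP2 was the same in both groups, while the distances between them changed. Whether the gap between MAPT and MAP2 in No-SCI exceeds the spread between animals could not be assessed. Levels of different genes may also not be comparable, as set out below with the numbers of transcripts.

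MAP7 stood at 713 FPKM in No-SCI and 220 after SCI, with 30.9% left, and its rank among all entries went from 240 to 955. Its paralog MAP7D1 went the other way, from 67.1 to 108 FPKM, and its log2 ratio of 0.69 was the largest of the members. The level of MAP7 was therefore 10.6 times that of MAP7D1 in No-SCI and 2.04 times after SCI. The log2 ratios of the paralogs were 2.38 apart, with that of MAP7 the lower one. The other paralogs in the table lay between them. MAP7D2, expressed mainly in the nervous system, had 30.4 FPKM in No-SCI and 19.02 after SCI (log2 ratio −0.68), and MAP7D3 had 5.52 and 7.13 FPKM (0.37).

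The members of the MAP1 family differed by less than 1.5-fold between the groups. MAP1A, the member typical of mature neurons, stood at 159 FPKM in No-SCI and 128 after SCI (log2 ratio −0.32). MAP1B, the member typical of growing axons, stood at 135 and 156 FPKM (log2 ratio 0.20). These 2 were the only of the 10 members to exchange places in the order of levels: MAP1B was at 0.849 of MAP1A in No-SCI and at 1.22 times MAP1A after SCI. MAP1S, a shorter and widely expressed relative, had 24.3 FPKM in No-SCI and 17.2 after SCI (log2 ratio −0.50). The summed level of the 3 genes was 319 FPKM in No-SCI and 300.4 after SCI, with 94.3% left, against 36.8% for the sum of MAP4, MAPT and MAP2.

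MAP6 had 36.8 FPKM in No-SCI and 43.3 after SCI (log2 ratio 0.24), whereas MAP6D1, its shorter paralog and no member, had 8.87 and 6.49 FPKM (−0.45). MAP9 had the lowest level of the members, 6.48 FPKM in No-SCI and 4.50 after SCI (log2 ratio −0.53), at percentiles 26.4 and 20.6 of all entries. MAP4 stood at percentile 99.98 in No-SCI and 99.9 after SCI, so the 10 genes run from below the median level of the table to nearly its top. The log2 ratios of the 6 members at lower levels lay between percentile 29.03 (MAP9) and percentile 86.2 (MAP7D1) of all log2 ratios. Those of MAP7, MAP4, MAP2 and MAPT lay at percentiles 2.52, 3.64, 6.02 and 16.1.

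**Figure D2:**
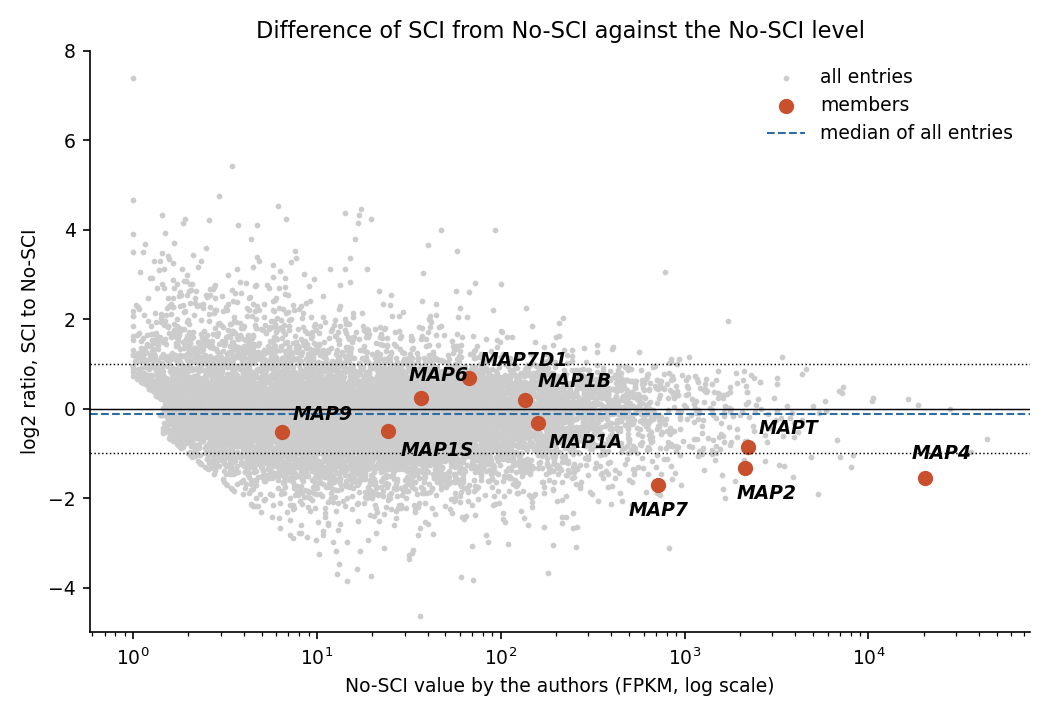
Change (log2 of SCI over No-SCI) against the No-SCI level (authors' FPKM, log scale) for all 12771 entries (grey) and the 10 members (coloured), with dotted lines at a fold of 2, a solid line at 0 and a dashed line at the median of all entries, −0.12. MAP4, MAP2 and MAP7 lie below the lower dotted line and MAPT just above it, while the other 6 members lie between the dotted lines. At or above the No-SCI level of MAP7, 13.3% of 240 entries were at least 2-fold lower, beside 12.1% of all entries.

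Most other entries at such levels did not differ by as much. Of the 240 entries at or above the No-SCI level of MAP7, 13.3% were at least 2-fold lower after SCI, beside 12.1% of all entries. The median log2 ratio of the 240 was −0.10. Of the 4 members in that range 3 (75.0%) were at least 2-fold lower and 0 at least 2-fold higher, where 3.75% of the 240 were higher by that fold. Only 6 of the 240 had a smaller log2 ratio than MAP7, and 3 of the 66 entries at or above the level of MAP2 had a smaller one than MAP2. Of the 58 entries at or above MAPT, 11 had a smaller log2 ratio than MAPT. Among the 8 entries of at least 10000 FPKM in No-SCI, 4 were lower and 4 higher after SCI, 1 of the lower ones by so little that each scaling tried turns it higher, and MAP4 had the smallest log2 ratio of them. Each cut is the No-SCI level of a member, and No-SCI is the group in which all 4 members were higher. These counts therefore describe 4 genes, carry no test and lend the differences no support.

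The transcripts of the 10 genes made up a sum of 25703 FPKM in No-SCI and 9725 after SCI, with 37.8% left. MAP4 held 78.6% of that sum in No-SCI and 71.5% after SCI. The share of MAPT went from 8.65% to 12.7% and that of MAP2 from 8.33% to 8.84%, while that of MAP7 went from 2.77% to 2.26%. The 6 members at lower levels together went from 1.67% to 4.69% of the sum, since their own sum, 429 FPKM in No-SCI and 456 after SCI, was nearly level. Without MAP4, the sum of the other 9 was 5505 FPKM in No-SCI and 2767 after SCI, with 50.3% left.

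The entries whose pair of levels lay nearest to each member were found by the distance between their log2 levels in the 2 groups, over those 2 values only. MAP4 had no near neighbour: the closest was APOE at a distance of 1.22 on the log2 scale, then ACTB (1.26) and TMSB4X (1.48), and all 3 were higher after SCI. The nearest entries to MAPT were SCOC at 0.05, CNN3 at 0.09 and SEPTIN2, a septin that also binds microtubules, at 0.11. RAB28 and CKB lay near MAP2, at 0.37 and 0.41. RAB5B, NCALD and PAQR8 lay nearest to MAP7, each at about 0.19. Members at lower levels had many close neighbours, such as TMEM50B for MAP1A, MAFG for MAP1B, COPS7B for MAP1S, INTS10 for MAP6, PTTG1 for MAP7D1 and FRMPD4 for MAP9, all within 0.05.

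The other genes of microtubule control were taken from 10 lists of 98 genes, of which 86 are listed. Of these 60 (69.8%) were lower after SCI, 19 (22.1%) at least 2-fold lower and 1 (1.16%) at least 2-fold higher, with a median log2 ratio of −0.48. Those shares stand beside 56.3%, 12.1% and 7.96% of all entries. Under the 3 scalings, which move every log2 ratio up, 60 were lower, 13 to 17 were at least 2-fold lower, and DPYSL5 and SIRT2 lost that call under each. Of the 5 listed paralogs of the members, 3 were lower and 2 higher and none passed 2-fold. MAP1LC3B, an autophagy protein first found with the MAP1 complex, had the highest level of them, 247 FPKM in No-SCI and 174 after SCI (log2 ratio −0.51), and its relative MAP1LC3A had 89.9 and 112 FPKM (0.32).

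Among 13 listed lattice binders and spectraplakins, 10 were lower and 3 of them at least 2-fold. TPPP, a tubulin polymerization protein best known from oligodendrocytes, stood at 258 FPKM in the No-SCI group against 30.1 FPKM in SCI, and its log2 ratio of −3.10 was the smallest of all 86 genes. DCLK2 (−1.38) and EML2 (−1.32) were the other 2 past 2-fold. DCLK1, a doublecortin-like kinase, was the most abundant, at 6728 FPKM in No-SCI and 4132 after SCI (log2 ratio −0.70), and TPPP3, a paralog of TPPP, was at 445 and 458 FPKM (0.04), followed by the spectraplakin DST (−0.79). The log2 ratio of TPPP3 stayed above 0 under each scaling tried, since each moves it up.

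Of 14 listed plus-end proteins 12 were lower, 5 of them at least 2-fold. CLIP2, a linker at growing plus ends, had 74.9 FPKM in No-SCI and 18.4 after SCI (log2 ratio −2.02), CLIP3 had a log2 ratio of −1.57, and CLASP2, which stabilizes microtubules at the cell edge, had 418 and 142 FPKM (−1.56). MAPRE1, the gene of the end-binding protein EB1 and the most abundant of the list, was at 569 and 470 FPKM (−0.27), and CLASP1 at −0.83. Of 6 minus-end proteins 5 were lower, CAMSAP3 by the most (−1.50), while TUBG1, the gamma-tubulin that nucleates microtubules, went from 19.8 to 36.9 FPKM (0.90). The 5 severing enzymes listed were 3 lower and 2 higher and none passed 2-fold, with KATNAL1 at 37.8 and 51.7 FPKM.

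All 4 stathmins, which sequester tubulin, were lower. STMN4 went from 1270.0 to 494 FPKM (log2 ratio −1.36), whereas STMN1, the most abundant, was at 3363 and 2909 FPKM (−0.21). Of 5 collapsin response mediators, tubulin-binding proteins of growth cones, 4 were lower, DPYSL2 (−1.19) and, unless scaled, DPYSL5 (−1.01) by at least 2-fold, and DPYSL3, the most abundant, was at 85.2 and 101 FPKM (0.24). Of 11 listed tubulin-modifying enzymes 8 were lower. TTLL5, a polyglutamylase, had a log2 ratio of −1.72, and AGBL5 and VASH1 had −1.09 and −1.08, both short of 2-fold after median centring or upper quartile scaling. The most abundant of them were the deacetylase SIRT2, at 1411 FPKM in No-SCI and 695 after SCI (−1.02), the acetyltransferase ATAT1, at 551 and 277 FPKM (−0.99), and SVBP, at 200 and 293 FPKM (0.55).

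Among the 10 lists of microtubule regulators, that of the kinases that phosphorylate these proteins was the 1 with a median above 0. It also holds CDK5R1 and CDK5R2, which encode activators of the kinase CDK5 and are not kinases. Of 15 genes 10 were higher and 5 lower, with a median log2 ratio of 0.11. Of all entries 43.7% were higher. The list also had the lowest median level of the 10 lists in No-SCI, 8.53 FPKM. Among its higher genes, CDK5R2 (1.61 FPKM), MAPK8 (2.96), TTBK1 (3.47), GSK3A (3.92) and MARK4 (4.03) had low levels in No-SCI. Among its lower genes CDK5R1 stood at 1.87 FPKM. The lowest value of any entry is 1 FPKM. Whether such low levels bear on the contrast with the other lists was not tested. GSK3B, a major kinase of tau, went from 32.9 to 71.9 FPKM (log2 ratio 1.13) and was the 1 gene of the 86 to be at least 2-fold higher, joined by TUBG1 after median centring and upper quartile scaling. MAPK10, the neuronal form of JNK, went from 44.0 to 16.3 FPKM (−1.43). The most abundant kinases were MARK3, which acts on the repeats of tau, MAP2 and MAP4, at 159 and 188 FPKM (0.25), and FYN, at 103 and 131 FPKM (0.34). Of 8 genes of phosphatase 2A and calcineurin, the phosphatases that act on tau, 6 were lower. PPP2R2B, a regulatory subunit of phosphatase 2A in neurons, was the most abundant, at 699 FPKM in No-SCI and 285 after SCI (−1.29), and PPP3CB, a catalytic subunit of calcineurin, had a log2 ratio of −1.10, short of 2-fold after median centring.

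**Figure D3:**
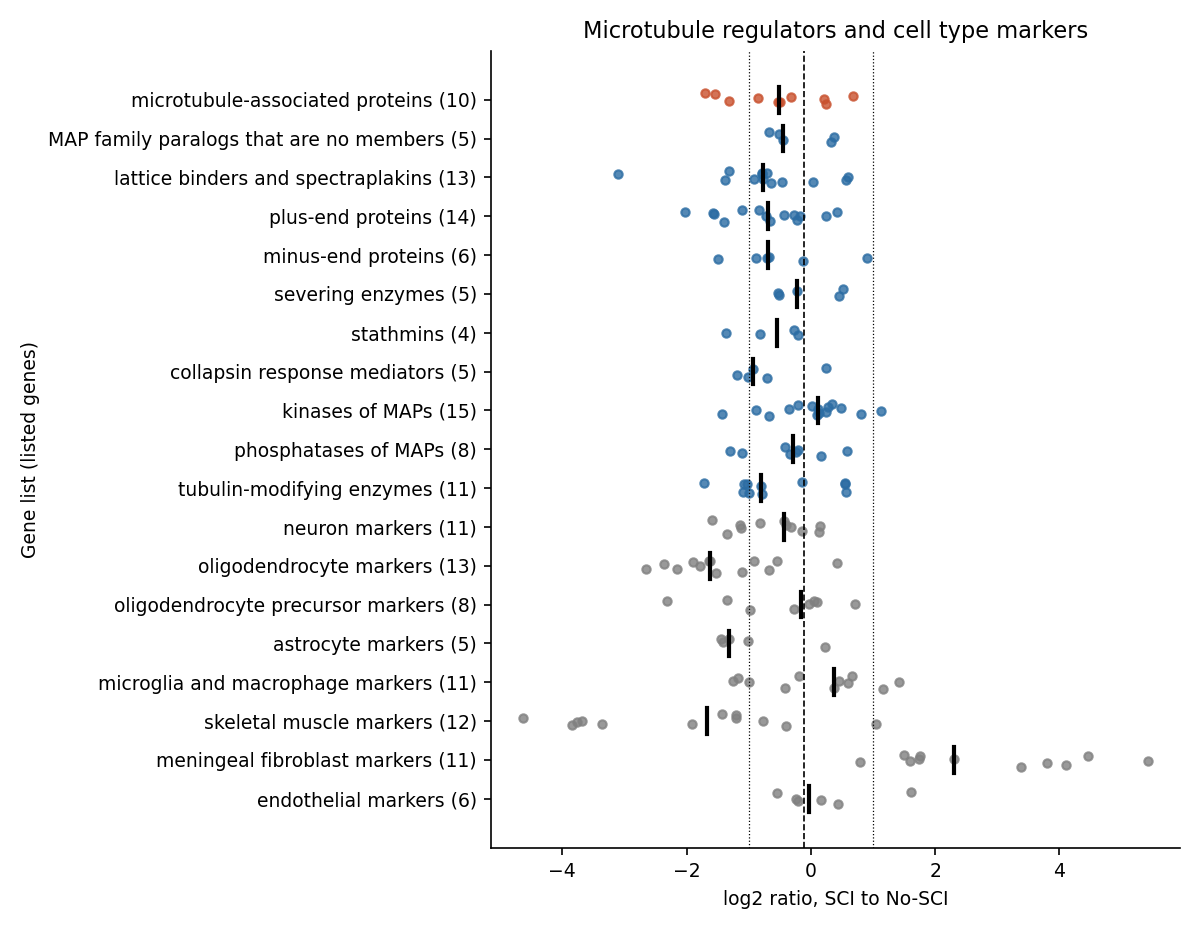
Change (log2 of SCI over No-SCI) of each listed gene, by list, for the members, other microtubule regulators and cell type markers, with vertical bars at list medians, a dashed line at the median of all entries (−0.12) and dotted lines at a fold of 2. The members' median is −0.51, and the kinases of these proteins, listed with CDK5R1 and CDK5R2, stand at 0.11. Oligodendrocyte markers (−1.62) and meningeal fibroblast markers (2.31) lie farthest apart among the nervous tissue and meningeal lists.

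Markers of several cell types also differed between the groups. Their counts stand beside 56.3% of all entries lower, 12.1% at least 2-fold lower and 7.96% at least 2-fold higher. Of 13 listed oligodendrocyte markers 12 were lower, 9 at least 2-fold, with a median log2 ratio of −1.62 and a summed level of 52767 FPKM in No-SCI and 30355 after SCI. MOBP and CNP were among the most abundant, OPALIN (−2.65), UGT8 (−2.36) and TSPAN2 (−2.16) had the smallest log2 ratios, and MBP has no entry. Of 11 listed neuron markers 9 were lower, 4 at least 2-fold, with a median of −0.44 and a sum of 1922 FPKM in No-SCI and 1760.1 after SCI. NEFL (−1.58), ELAVL4 and SYT1 had the smallest log2 ratios, GAP43 the highest level (0.14), and SNAP25, NEFM and CHAT have no entry. Of 5 listed astrocyte markers 4 were at least 2-fold lower. Of those 4, SLC1A2 (−1.01) passed 2-fold by less than the shift of any scaling tried. Among the oligodendrocyte markers, MOG (−1.11) passed it by less than the shift of median centring. The astrocyte sum was 8177 FPKM in No-SCI and 3332 after SCI, most of it NDRG2. GFAP, AQP4, S100B, SLC1A3 and ALDOC have no entry.

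Of 8 genes listed as oligodendrocyte precursor markers 5 were lower, 2 of them at least 2-fold, and 3 were higher. Their median log2 ratio was −0.15, where that of all entries was −0.12. Nearly all of their sum, 36179 and 18409 FPKM, was BCAS1, so the sum describes that 1 gene. BCAS1, SOX10 and OLIG1 are also expressed in later oligodendrocytes, so the list is not particular to precursors. Of 12 skeletal muscle markers 11 were lower, 9 at least 2-fold, with a sum of 488 FPKM in No-SCI and 145 after SCI. MYH1 and MYH2 have identical values (2.71 and 1.18 FPKM), so these counts and this sum take 1 pair of values 2 times. All 11 meningeal fibroblast markers were higher, 10 at least 2-fold, with a sum of 70.9 FPKM in No-SCI and 901 after SCI. The 11 microglia and macrophage markers were 6 higher and 5 lower (sum 1010 and 1138 FPKM), and the 6 listed endothelial markers 3 and 3 (36.7 and 43.4 FPKM). The log2 ratios of MAP4, MAP2, MAP7 and MAPT all lay within the ranges of the oligodendrocyte (−2.65 to 0.42), oligodendrocyte precursor (−2.32 to 0.70) and skeletal muscle markers (−4.64 to 1.04). All but that of MAP7 lay within the range of the neuron markers (−1.58 to 0.14), those of MAP2 and MAPT within that of the astrocyte markers (−1.44 to 0.23) and that of MAPT within that of the microglia and macrophage markers (−1.25 to 1.43). These ranges are wide among all log2 ratios. They span percentiles 0.34 to 77.1 for the oligodendrocyte, 0.62 to 86.8 for the precursor and 0.008 to 92.5 for the muscle markers. Those of the neuron, astrocyte and microglia and macrophage markers span 3.27 to 63.7, 4.49 to 68.2 and 7.14 to 96.0. Most entries thus fall inside each, and lying within a range ties no member to a cell type. The part of any of these cell types in the change of a member was not tested.

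The number of annotated transcripts also moved with the level of the members. In RefSeq (GRCr8), MAP2 has 51 transcripts, MAP4 50, MAPT 41 and MAP7 16, and the other members have from 1 (MAP1S) to 8 (MAP7D1). Across the 10 genes Spearman's rho between that number and the No-SCI level was 0.83, given as a description over genes that share both groups' libraries. Over the 11892 protein-coding entries matched by symbol it was 0.28. Of the 572 matched entries with at least as many transcripts as MAP7, 20.3% were at least 2-fold lower, and their median log2 ratio was −0.46. Of the 10093 with at most as many as MAP7D1, 11.3% were, with a median of −0.10. The values of 8 members, all but MAP7 and MAP9, carry more than the 6 significant digits of 1 Cuffdiff estimate in at least 1 group, as do those of 58.6% of all entries. MAP1S, with 1 RefSeq transcript, is among these 8, and MAP7, with 16, is not. The RefSeq numbers also differ in source from the rn6 Ensembl annotation behind the values. If such values are sums over several estimates of a symbol, levels of genes with many transcripts cannot be set beside those with few, and that part was not tested.

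**Figure D4:**
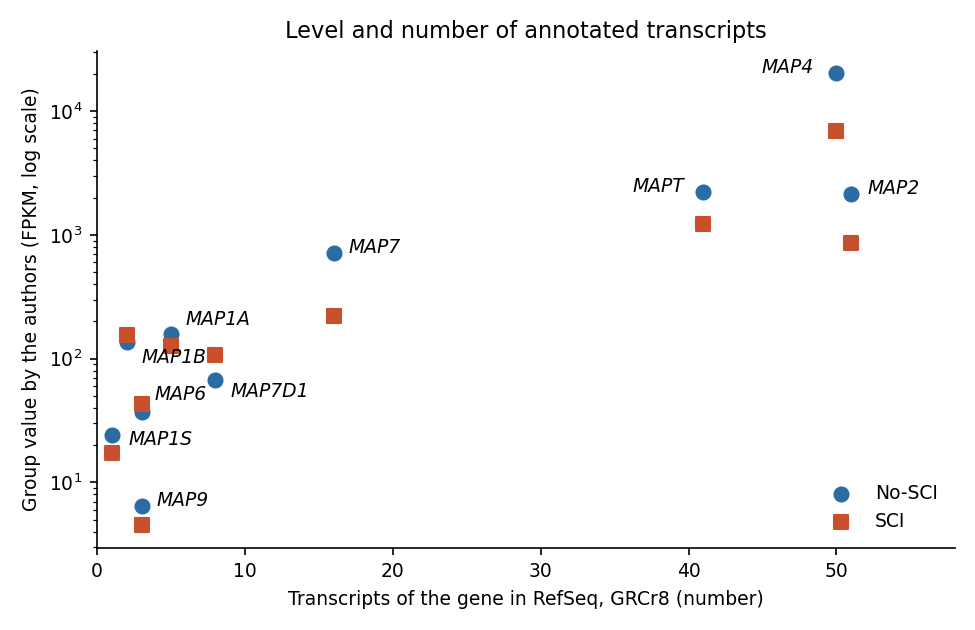
Level of each member in No-SCI (circles) and SCI (squares), as the authors' FPKM on a log scale, against the number of transcripts that RefSeq (GRCr8) lists for the gene. The 4 genes with 16 to 51 transcripts have the 4 highest levels in both groups, and the 6 genes with 1 to 8 transcripts lie below them.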

How the data were processed

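The deposited table gives FPKM values, 1 per group, made by the authors: reads were downsampled to the smallest library, aligned to rn6 with STAR 2.5.4b and the Ensembl annotation, and summarized per group with Cuffdiff 1.3.0 and upper quartile normalization. Its fold change, log2 fold change, p-value, q-value and significance columns hold the authors' own comparison and were not used. The 2 value columns were assigned by the group named beside them. With no values per library and no counts used, the fragments behind each value and the spread are unknown and no test was possible.

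Log2 ratios, ranks, percentiles, sums and list medians were computed without a pseudocount, and 13 symbols listed again, none of them members, were represented by the entry with the larger mean. Members and lists were chosen with earlier results of these data known. Named genes are all members, the 3 most abundant genes of each list and up to 3 past 2-fold in each direction with the largest change, and the 3 nearest entries to each member. A few genes that the rule picks are not reported. MAP7D3, MAP6D1, SLC1A2, MOG, MYH1, MYH2, CDK5R1 and CDK5R2 fall outside this rule and were chosen after their values were seen. Transcript numbers and upstream windows came from RefSeq (GRCr8), used for names and sequence alone. The alternatives were pseudocounts of 1 and 0.1, subtracting 1, 3 scalings, other fold minimums of 1.3 and 1.5, a mean of at least 10 FPKM, the smaller of repeated entries, leaving out 4 members, levels ranked in SCI and, chosen after seeing the data, the scalings for the other regulators. The ratio and count steps were tested on simulated data. Computations ran in Python 3.11.15 (pandas 2.3.3, numpy 2.4.6, matplotlib 3.10.9, scipy 1.17.1).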

Additional observations from a re-analysis of the deposited data

How the results depend on the processing

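Every member kept its direction under the pseudocounts, the subtraction of 1 and the 3 scalings tried. The counts of members lower and at least 2-fold lower kept their values there. The directions could not have changed and so lend no support. The same constant added to or taken from both groups cannot reverse a log2 ratio. The scalings move every log2 ratio up by at most 0.12, and the lower member nearest to 0 is MAP1A, at −0.32. The median log2 ratio of the members, −0.51, was −0.46 with a pseudocount of 1, −0.51 with 0.1 (−0.506 before rounding), −0.59 with 1 subtracted, −0.40 after median centring, −0.41 after upper quartile scaling, −0.47 after scaling to the same total and −0.50 with a mean of at least 10 FPKM, which left out MAP9. The scalings moved every log2 ratio up by 0.12, 0.10 and 0.05, and after centring 9.59% of all entries were at least 2-fold lower and 9.55% at least 2-fold higher. Without MAP2, MAP4, MAP7 and MAPT, the members that the paper names, the median was −0.057, 3 of 6 members were lower and 0 were at least 2-fold lower, since the 3 members past 2-fold are among those left out. A fold of at least 1.3 gave 6 members lower and 1 higher, and a fold of at least 1.5 gave 4 lower and 1 higher. The other microtubule regulators at least 2-fold lower numbered 13 after median centring, 15 after upper quartile scaling and 17 after scaling to the same total, in place of 19. The ranks of the members in SCI in place of No-SCI ran from 14 for MAP4 to 10145 for MAP9. No paired analysis was possible because the table holds 1 value per group, and for the same reason no library could be left out.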
